A study of Homo sapiens with 6 samples.

Results

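AP-1 is a transcription factor made of paired proteins of the FOS, JUN, ATF and BATF families, and 9 of its genes are described here: FOS, FOSB, FOSL1, FOSL2, JUN, JUNB, JUND, ATF3 and BATF3. They were picked by symbol from the 58735 genes of the deposited count table, and each symbol matched a single row. The 2 groups were Ovcar8 cells kept for 48 h without serum (serum-starved, 3 libraries) and Ovcar8 cells kept for 48 h with 5% fetal bovine serum (FBS, 3 libraries). Ovcar8 is an established line derived from high-grade serous carcinoma of the ovary, so every library comes from 1 line, and both groups were grown in RPMI-1640 medium. Whether replicate libraries stem from different cultures is not given, and p-values here reflect the variation among these libraries, which may be technical. The comparison asks which AP-1 transcripts differ after serum withdrawal, a treatment that the series title ties to quiescence, a resting state outside the cell cycle.

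AP-1 proteins pair through a leucine zipper and bind DNA through a basic region beside it. JUN proteins can pair with each other or with FOS proteins, whereas FOS proteins need a JUN partner. FOS, FOSB and JUNB are immediate early genes: serum added to resting cells switches them on within minutes through the MAP kinases, and their transcripts then decay fast. FOSL1 follows sustained ERK signalling and is abundant in many carcinoma lines, and JUND is made more evenly through the cell cycle.

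The libraries held 17288356, 18201183 and 19558484 counts in serum-starved cells and 17882533, 17292872 and 16379416 in cells with FBS, in the order of the replicates. Transcript GC content separated libraries inside each group. In the tenth of genes with the highest GC content (62.3% and above), the median log2 deviation from the 6-library mean was 0.48, 0.10 and -0.47 in serum-starved replicates 1 to 3. In cells with FBS it was -0.27, 0.17 and 0.07. Fold changes between the groups also varied with GC content, and the cause was not tested. The median log2 fold change, serum-starved over with FBS, was -0.48 in the tenth with the lowest GC content and 0.10 in the highest. Fold changes are therefore also given after GC content and length trends were removed from each library, called the GC and length correction here. With it these medians were 0.02 and -0.02. Of the carcinoma markers, KRT8, KRT18, PAX8 and MSLN were at 59.4 CPM (counts relative to library size, scaled between libraries by TMM) or more in every library, WT1 and EPCAM were at 3.96 CPM or less and KRT19 had at most 4 counts. The summed level of 6 markers of leukocytes, endothelium and liver was 1.54 to 4.55 CPM in serum-starved cells and 0.356 to 0.774 CPM with FBS. The endothelial gene VWF, at up to 4.21 CPM (62 counts), made up most of the highest sums, while PTPRC, CD68 and PECAM1 had at most 7 counts in a library and CD3E and ALB had 0. The part of VWF in the results was not tested.

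On the deposited FPKM scale, which divides counts by gene length, FOSL1 and JUND made up most of the family. FOSL1 was at 216 ± 65.1 FPKM in serum-starved cells and 327 ± 28.3 FPKM with FBS (SD, n = 3 each), and over all libraries it ranked 167 among the 13772 genes tested. JUND was at 151 ± 54.5 FPKM in serum-starved cells and 81.7 ± 21.6 FPKM with FBS, with an overall rank of 418. Next came JUN (53.1 ± 14.8 and 57.1 ± 7.38 FPKM in the same order of groups), FOSL2 (16.3 ± 1.12 and 16.7 ± 3.01) and JUNB (8.92 ± 3.78 and 13.95 ± 5.18). FOS and FOSB lay at the bottom, at 1.05 ± 0.469 and 0.476 ± 0.163 FPKM in serum-starved cells and 0.717 ± 0.50 and 0.298 ± 0.0418 FPKM with FBS. ATF3 and BATF3 stood just above them, ATF3 above BATF3 in serum-starved cells and below it with FBS. In serum-starved cells the ranges of FOSL1 and JUND overlapped, as did those of each neighbouring pair among ATF3, BATF3, FOS and FOSB. With FBS the ranges of FOSL1 and JUND did not overlap, whereas those of JUND and JUN, FOSL2 and JUNB, ATF3 and FOS, and FOS and FOSB did.

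**Figure D1:**
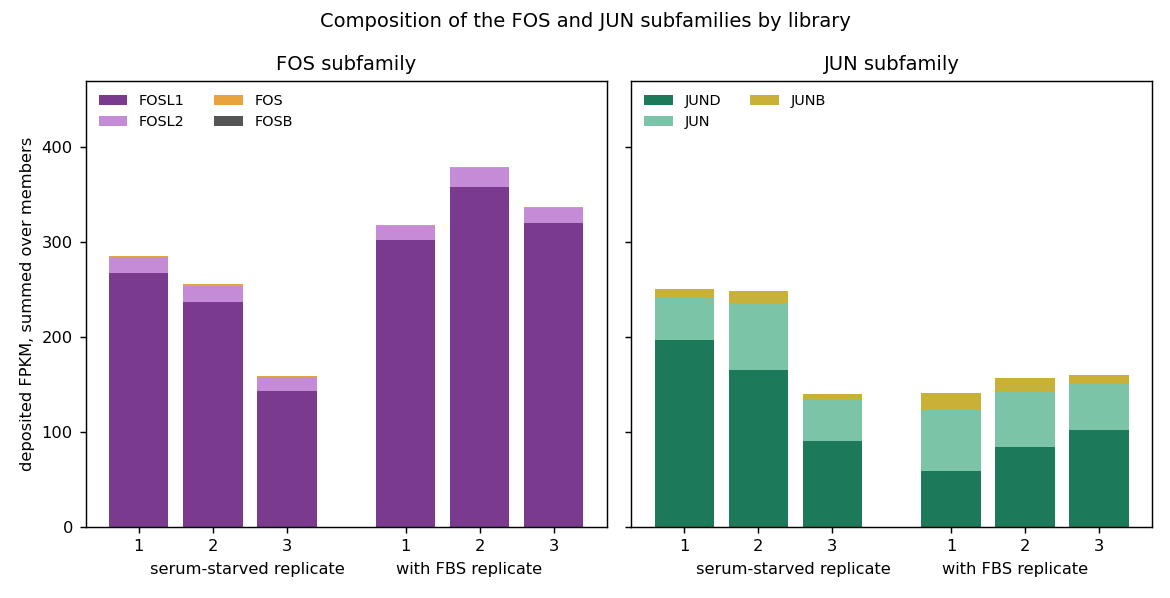
Deposited FPKM of the FOS subfamily (left panel) and the JUN subfamily (right panel), stacked by member for each library, with the 3 serum-starved libraries left of the 3 with FBS. FOSL1 fills 89.7% to 95.1% of every left bar, and JUND fills 64.7% to 78.5% of the right bars in serum-starved cells and 41.6% to 63.8% with FBS.

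None of the 9 members passed the test for a change, although all 9 passed the filter on low counts. The background for this count is 39 of 13772 genes, or 0.283%, called by edgeR's quasi-likelihood test at a Benjamini-Hochberg adjusted p under 0.05 (0.24% higher and 0.0436% lower in serum-starved cells). The edgeR adjusted p of the members ran from 0.362 to 0.980. limma-voom also called none of the 9, and DESeq2 none of the 8 to which it gave an adjusted p (all but FOSB). At an unadjusted p under 0.05 there were 2 members, JUND and ATF3, both higher in serum-starved cells, against 10.4% of all genes tested (6.01% higher, 4.37% lower). The fold change was above 0 for 4 members and below 0 for 5, with a median log2 fold change of -0.03 beside -0.02 over all genes. The groups did not overlap in CPM for 3 members, namely FOSL1 and BATF3, lower in serum-starved cells, and ATF3, higher, where 17.7% of all genes tested did not overlap (1383 genes higher, and 1054 genes or 7.65% lower). In bulk RNA, fewer cells carrying a transcript and less of it per cell cannot be told apart.

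JUND, a JUN protein that in mouse fibroblasts is linked to slower growth, had the lowest adjusted p of the family. It was at 374, 317 and 173 CPM in the 3 serum-starved libraries, against 114, 160 and 194 CPM in those with FBS. Serum-starved replicates 1 and 2 lay above every library with FBS, and replicate 3 lay below FBS replicate 3, so the groups overlapped. Means were 288 ± 104 CPM in serum-starved cells and 156 ± 40.1 CPM with FBS (SD, n = 3 each), and the log2 fold change was 0.89 (standard error, SE, 0.34; 95% interval 0.18 to 1.6; edgeR adjusted p = 0.362). JUND transcripts had a GC content of 69.7%, higher than that of 99.6% of the genes tested, and its order of libraries was that of the GC deviations given above in serum-starved cells but not with FBS.

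After the GC and length correction JUND was at 272, 286 and 287 CPM in serum-starved cells, against 126, 137 and 187 CPM with FBS. All 3 serum-starved libraries then stood above all 3 with FBS, and the SD of the serum-starved group was 8.42 CPM in place of 104 CPM, whereas that of the group with FBS was 32.4 CPM in place of 40.1 CPM. The corrected log2 fold change was 0.91 (SE 0.20, 95% interval 0.48 to 1.33), with an edgeR adjusted p of 0.05003, just above the threshold. That fit called 107 of 13772 genes, or 0.777% (0.588% higher, 0.189% lower), and none of the members. After the correction the groups did not overlap for 5 members (JUND and ATF3 higher, FOSL1, FOSL2 and BATF3 lower in serum-starved cells), where 22.0% of all genes tested did not. Without serum-starved replicate 3 and without the correction, JUND passed at a log2 fold change of 1.15 and an edgeR adjusted p of 0.0258, in a fit that called 1.81% of genes (0.875% higher, 0.938% lower). Without FBS replicate 1 its log2 fold change was 0.70 (edgeR adjusted p = 0.997), in a fit that called 3 genes higher and 1 lower of 14189. FOSL1 and ATF3 had the same adjusted p in that fit. Corrected fits without serum-starved replicate 1, serum-starved replicate 3 or FBS replicate 1 were chosen after seeing the data. They gave JUND 0.90, 0.91 and 0.79 (edgeR adjusted p = 0.0746, 0.0604 and 0.292).

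JUN itself was at 162, 255 and 161 CPM in serum-starved cells and at 235, 210 and 178 CPM with FBS. The groups overlapped, serum-starved replicate 2 being the highest of the 6. Its log2 fold change was -0.10 (SE 0.30, 95% interval -0.74 to 0.53, edgeR adjusted p = 0.937), and the sign turned to 0.02 without serum-starved replicate 1 and to 0.01 without serum-starved replicate 3. JUNB, which can oppose JUN on shared target genes, was at 16.8, 23.7 and 9.51 CPM in serum-starved cells and at 35.8, 26.6 and 15.9 CPM with FBS. The 2 highest values were from cells with FBS and the lowest from serum-starved replicate 3, with overlap between. The log2 fold change of JUNB was -0.65 (SE 0.38, 95% interval -1.46 to 0.16, edgeR adjusted p = 0.582). Leaving out serum-starved replicate 2 gave -0.998, leaving out replicate 3 of that group gave -0.37, and the value was -0.36 without FBS replicate 1 and -0.21 in the corrected fit without FBS replicate 1. JUNB lies inside HOOK2, a gene on the opposite strand at 13.0 to 23.9 CPM, and the strand setting of the counting is not given, so reads of the pair cannot be told apart with certainty.

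The deposited JUN gene model (chromosome 1, 58780788 to 58784327, GRCh38) has a single exon, as has JUNB (chromosome 19, 12791496 to 12793315). JUND lies on chromosome 19 from 18279760 to 18281622. RefSeq promoter windows were found for 7 of the 9 members. The bases upstream of the gene models of JUND, JUNB, FOS and FOSB are shown, 5′ to 3′ on each gene's sense strand (RefSeq, GRCh38.p14), because each holds TGACG, the core of the CRE, the site of CREB and ATF proteins. Capitals mark TGACG or its reverse complement CGTCA.
JUND, chr19:18281623-18281872, minus strand: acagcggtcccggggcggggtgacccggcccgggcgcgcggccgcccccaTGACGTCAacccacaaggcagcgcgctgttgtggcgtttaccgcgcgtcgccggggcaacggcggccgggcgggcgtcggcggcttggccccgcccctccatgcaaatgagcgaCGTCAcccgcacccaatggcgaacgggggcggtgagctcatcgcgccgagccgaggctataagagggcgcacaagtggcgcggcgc
JUNB, chr19:12791236-12791485, plus strand: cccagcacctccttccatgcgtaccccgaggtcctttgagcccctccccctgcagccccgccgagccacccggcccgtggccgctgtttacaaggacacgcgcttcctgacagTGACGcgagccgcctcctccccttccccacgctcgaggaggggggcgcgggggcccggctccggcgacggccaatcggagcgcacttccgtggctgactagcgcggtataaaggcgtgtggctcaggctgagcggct
FOS, chr14:75278578-75278773, plus strand: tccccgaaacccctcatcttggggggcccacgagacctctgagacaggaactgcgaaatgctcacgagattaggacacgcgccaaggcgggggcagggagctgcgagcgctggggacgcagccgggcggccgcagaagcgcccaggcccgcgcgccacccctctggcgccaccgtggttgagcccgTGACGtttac
FOSB, chr19:45467746-45467994, plus strand: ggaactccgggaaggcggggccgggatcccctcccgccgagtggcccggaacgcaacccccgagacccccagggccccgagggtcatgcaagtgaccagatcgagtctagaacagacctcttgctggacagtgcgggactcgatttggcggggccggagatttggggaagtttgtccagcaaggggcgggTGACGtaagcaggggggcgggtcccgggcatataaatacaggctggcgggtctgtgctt

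In the 250 bases upstream of the RefSeq start, searched on both strands, TGACG was found in 6 of the 7 members with a window (FOS, FOSB, FOSL2, JUN, JUNB and JUND) and in 21.2% of 35116 windows of that length. The windows of FOSL2 and JUN lie wholly inside the deposited gene models, so their bases are not shown. The full palindrome TGACGTCA, which holds the core on each strand, was found in JUND alone among them, from 200 to 193 bases upstream, and in 1.65% of all windows. FOS, FOSB and FOSL2 carry a core at like distances, from 64, 60 and 66 bases upstream, and FOSL2 has another from 201 bases upstream. The AP-1 site TGACTCA was found in no member's window and in 4.20% of all windows, and the CArG box, the site of SRF, in no member's window and in 1.16%. These are matches of letters in a fixed window, with no measurement of binding. Sites farther upstream and variants of these sites were not searched for, so no match here does not mean that a gene lacks the site.

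FOSL1, which encodes FRA-1, is the FOS protein that carried nearly all FOS-subfamily transcripts here (chromosome 11, 65892049 to 65900573). It was at 517, 460 and 277 CPM in serum-starved cells, against 594, 687 and 618 CPM with FBS. Every serum-starved library lay below every library with FBS, and replicate 3 was far below the other 2 of its group. Means were 418 ± 125 CPM in serum-starved cells and 633 ± 48.4 CPM with FBS (SD, n = 3 each), a log2 fold change of -0.60 (SE 0.32, 95% interval -1.27 to 0.07, edgeR adjusted p = 0.536). After the GC and length correction the serum-starved libraries were at 404, 412 and 443 CPM, against 640, 594 and 592 CPM with FBS. The corrected log2 fold change was -0.54 (SE 0.19, 95% interval -0.94 to -0.13, edgeR adjusted p = 0.182). Without serum-starved replicate 3 and without the correction it was -0.38 (edgeR adjusted p = 0.488).

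**Figure D2:**
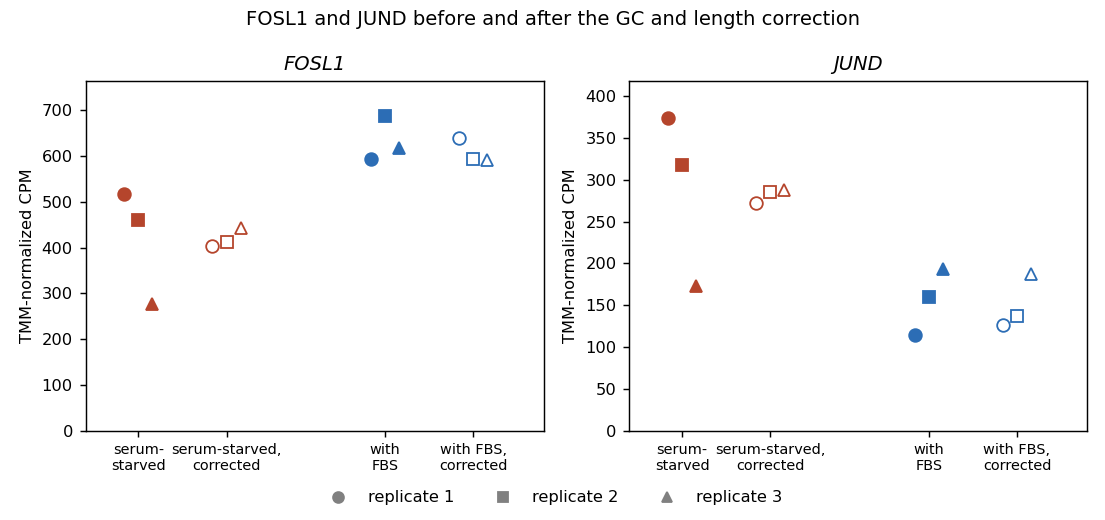
TMM-normalized CPM of FOSL1 (left panel) and JUND (right panel) in each library, as measured (filled) and after the GC and length correction (open), with serum-starved libraries left of those with FBS and replicates told apart by shape. The serum-starved values of JUND spread from 173 to 374 CPM as measured and from 272 to 287 CPM after correction.

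FOSL2, the FRA-2 gene, had 123, 126 and 111 CPM in serum-starved cells and 106, 146 and 116 CPM with FBS. Both extremes came from cells with FBS, and the serum-starved values lay between them. Its log2 fold change was -0.03 with a 95% interval of -0.62 to 0.55 (edgeR adjusted p = 0.980). After the GC and length correction it was -0.23 (95% interval -0.62 to 0.16, edgeR adjusted p = 0.572), and without FBS replicate 2 it was 0.12.

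FOS, the classic partner of JUN, had only 29, 93 and 77 counts in the serum-starved libraries, against 79, 42 and 10 with FBS. These correspond to 1.97, 5.10 and 3.39 CPM in serum-starved cells and 4.01, 2.50 and 0.650 CPM with FBS. The groups overlapped widely, and the lowest library was FBS replicate 3. The log2 fold change of 0.54 had an SE of 0.60 and a 95% interval of -0.71 to 1.79 (edgeR adjusted p = 0.810), and it ran from 0.11 without FBS replicate 3 to 1.14 without FBS replicate 1, with 0.16 and 0.83 without serum-starved replicates 2 and 1. FOSB, whose short splice form lacks the activation domain and cannot be separated in gene counts, had 37, 68 and 43 counts in serum-starved cells and 38, 29 and 22 with FBS. At 2.51, 3.73 and 1.89 CPM in serum-starved cells and 1.93, 1.73 and 1.43 CPM with FBS, only serum-starved replicate 3 and FBS replicate 1 crossed. Its log2 fold change was 0.67 (SE 0.54, 95% interval -0.46 to 1.80, edgeR adjusted p = 0.722), and 0.37 without serum-starved replicate 2. FOSB lies inside ERCC1, a gene on the opposite strand at 49.8 to 130 CPM, so its few reads are uncertain.

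ATF3, a stress-induced factor that can repress as a pair with itself, was at 5.57, 11.4 and 6.16 CPM in serum-starved cells, against 5.08, 3.52 and 2.79 CPM with FBS. All 3 serum-starved libraries stood above those with FBS, by a narrow gap for replicate 1, and replicate 2 was well above the rest. With 82, 208 and 140 counts in serum-starved cells and 100, 59 and 43 with FBS, its log2 fold change was 1.02 (SE 0.45, 95% interval 0.08 to 1.96, edgeR adjusted p = 0.435). That value was 0.62 without serum-starved replicate 2 and 1.28 without FBS replicate 1. BATF3, a short AP-1 protein without an activation domain, known for its role in mouse dendritic cells, was at 4.08, 5.98 and 2.95 CPM in serum-starved cells, against 6.71, 7.74 and 6.56 CPM with FBS. No serum-starved library reached the lowest with FBS. Its log2 fold change was -0.69 (SE 0.42, 95% interval -1.58 to 0.20, edgeR adjusted p = 0.591). ATF3 and BATF3 are neighbours on chromosome 1, at 212565334 to 212620777 and 212686418 to 212699985.

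**Figure D3:**
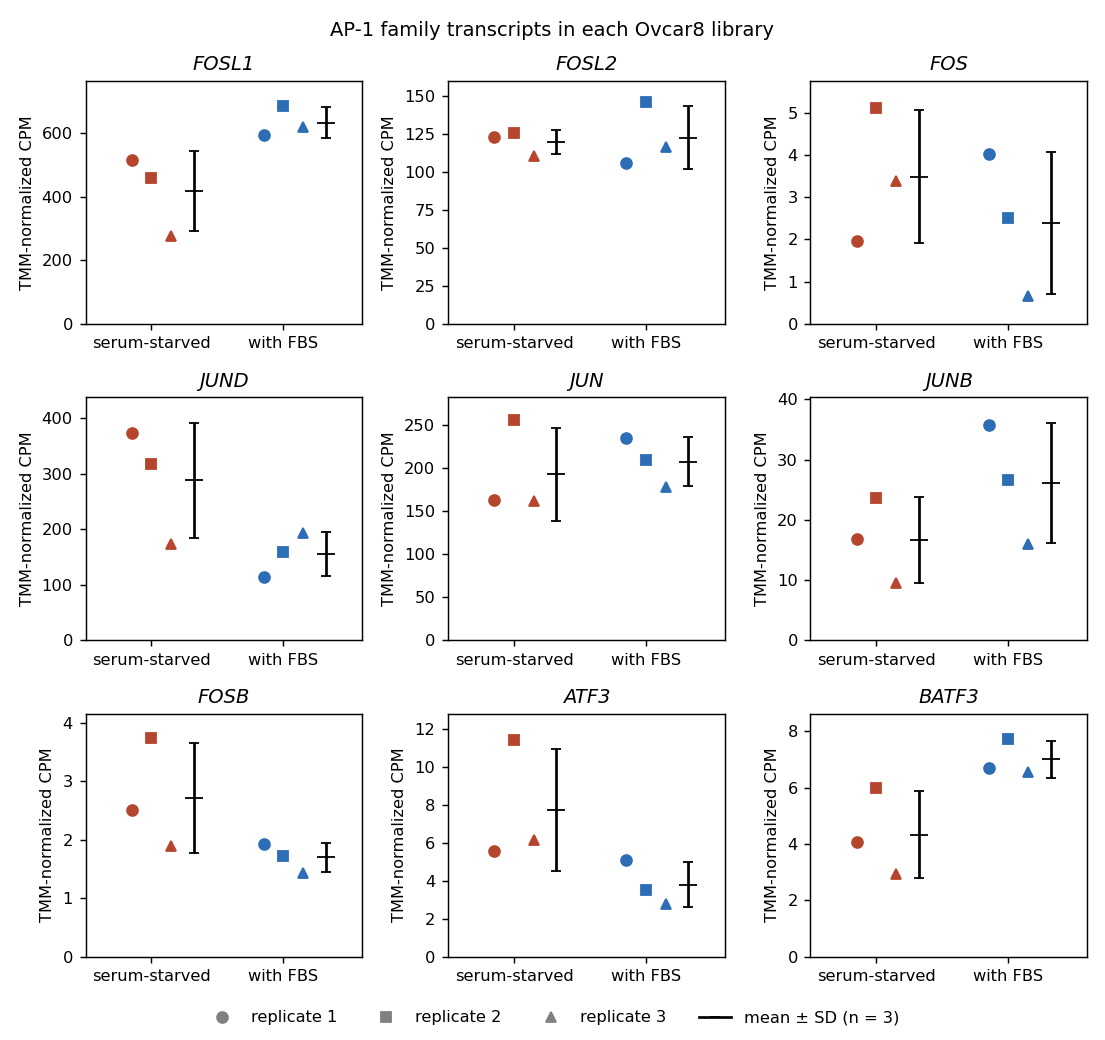
TMM-normalized CPM of each member in the 3 serum-starved libraries (left of each panel) and the 3 libraries with FBS (right), with replicates told apart by shape and the mean ± SD beside them. FOSL1 and BATF3 are lower in every serum-starved library than in any with FBS, ATF3 is higher, and the other 6 overlap.

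**Figure D4:**
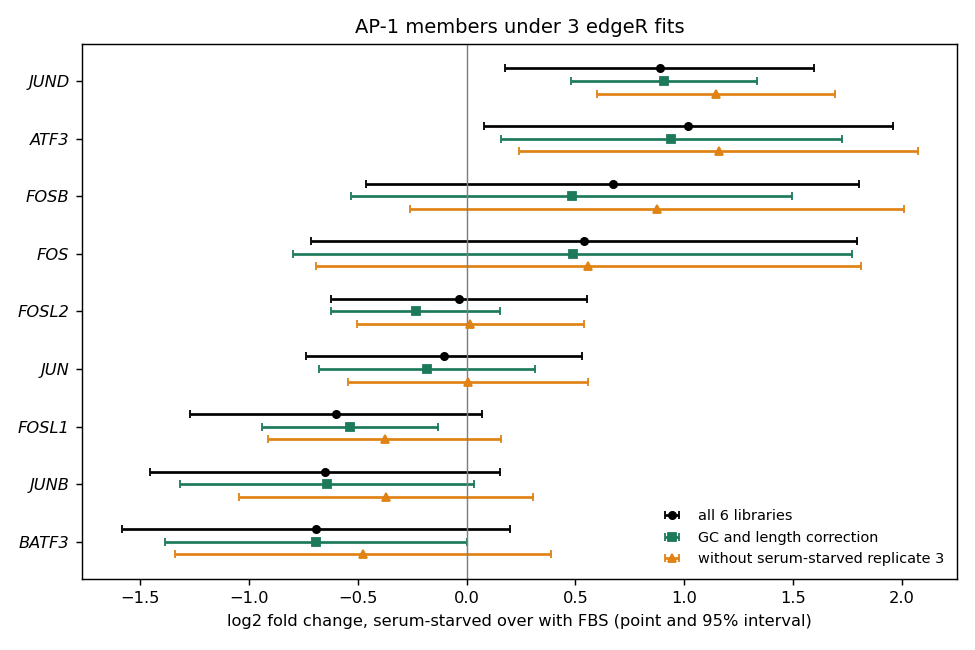
Log2 fold change of each member, serum-starved over with FBS, with its 95% interval in 3 edgeR fits: all 6 libraries, all 6 with the GC and length correction, and without serum-starved replicate 3. JUND and ATF3 lie above 0 in all 3 fits with intervals that leave out 0, and FOSL1 and BATF3 lie below 0 in all 3 with intervals that leave it out in the corrected fit alone. For BATF3 that interval ends almost at 0 (upper end -8.0e-05). Fits that left out another library are not drawn, and some were weaker. JUND was 0.70 (SE 0.38) without FBS replicate 1, and ATF3 was 0.62 (SE 0.51) without serum-starved replicate 2.

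Shares within a subfamily do not depend on a library's scaling factor, although GC and length trends can still move them. JUND made up 78.5%, 66.7% and 64.7% of the summed FPKM of JUN, JUNB and JUND in serum-starved cells, against 41.6%, 53.7% and 63.8% with FBS. Every serum-starved share was above every share with FBS, by less than a percentage point between serum-starved replicate 3 and FBS replicate 3, and the exact permutation test gave p = 0.10, the smallest that 3 against 3 libraries allow. The share of JUN was 25.95% ± 7.16 in serum-starved cells and 37.7% ± 7.14 with FBS, with overlap (exact permutation p = 0.20, n = 3 each). JUNB was at 4.11% ± 0.848 in serum-starved cells and 9.29% ± 4.0 with FBS, without overlap (exact permutation p = 0.10, n = 3 each). The gap was narrow, between 5.09% in serum-starved replicate 2 and 5.37% in FBS replicate 3.

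FOSL1 made up 93.8%, 92.5% and 89.7% of the FOS subfamily in serum-starved cells, against 95.1%, 94.4% and 95.1% with FBS. All serum-starved shares were below those with FBS (exact permutation p = 0.10, n = 3 each). FOSL2 held 7.33% ± 1.86 in serum-starved cells and 4.83% ± 0.422 with FBS, again without overlap, although its own level was 16.3 and 16.7 FPKM. FOS and FOSB together stayed under 1% in every library, FOS at 0.482% ± 0.238 in serum-starved cells and 0.211% ± 0.158 with FBS, and FOSB at 0.206% ± 0.050 and 0.0869% ± 0.0160. Since the exact permutation test of 3 against 3 libraries cannot go below p = 0.10, none of the 7 shares tested can pass a threshold of 0.05. The tests are also not independent, because the shares of a subfamily add up to the whole. Summed over the subfamily, FOS-type transcripts were at 234 ± 66.1 FPKM in serum-starved cells and 345 ± 31.2 FPKM with FBS, and JUN-type transcripts at 213 ± 63.2 and 153 ± 9.80 FPKM.

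The 2 most abundant members were also set against each other, a choice made after their values were seen and given with no test. The ratio of JUND to FOSL1 FPKM was 0.733, 0.698 and 0.633 in serum-starved cells, against 0.194, 0.236 and 0.318 with FBS. Every serum-starved ratio was well above every ratio with FBS. Together JUND and FOSL1 made up 80.8% ± 4.68 of the 9 members' summed FPKM in serum-starved cells and 81.5% ± 3.31 with FBS (SD, n = 3 each).

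Among all 48 genes that the deposited table annotates as basic leucine zipper factors, 41 were tested, none passed, 20 had a fold change above 0 and 21 below. The median log2 fold change of the 41 was -0.03, against -0.02 over all genes tested. Without serum-starved replicate 3 it was 0.18, against -0.01 over all genes tested. ATF1 and CREBZF, the non-members with the largest fold changes at 5 CPM or more, had log2 fold changes of -1.16 and -1.11 (edgeR adjusted p = 0.396 and 0.404). Of 15 AP-1 partners, also basic leucine zipper factors, 12 were tested and none passed, with 8 above 0, 4 below and a median of 0.27. These partners can be among the 48 genes above, so their counts are not separate. ATF7, a JUN partner, had a log2 fold change of 0.58 (edgeR adjusted p = 0.588), and DDIT3, the stress factor CHOP, of 0.64 (edgeR adjusted p = 0.749). Without serum-starved replicate 3 these were 0.33 for ATF7 and 1.00 for DDIT3. DDIT3 was at 5.03, 15.8 and 3.48 CPM in serum-starved cells and 7.21, 6.37 and 1.95 CPM with FBS. The groups overlapped for DDIT3, and serum-starved replicate 2 was far above every other library.

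Upstream of the family, none of the 14 tested genes of the ERK cascade passed (8 above 0, 6 below, median log2 fold change 0.10, but -0.08 with the GC and length correction). KSR1, a scaffold of RAF, MEK and ERK, was at 13.5 ± 1.57 CPM in serum-starved cells and 6.07 ± 1.65 CPM with FBS (SD, n = 3 each; log2 fold change 1.16, edgeR adjusted p = 0.289). It was 1 of 2 genes among the 14 whose groups did not overlap, a share below the 17.7% of all genes tested. MAP2K5, the kinase above ERK5, had a log2 fold change of 0.73 (edgeR adjusted p = 0.429). Of 13 tested genes of the JNK and p38 cascades none passed (9 above 0, 4 below, median 0.10, but -0.16 without serum-starved replicate 3). MAPK8, which encodes the JUN kinase JNK1, had a log2 fold change of -0.74 (edgeR adjusted p = 0.519), and MAP2K3, a p38 activator, of -0.61 (edgeR adjusted p = 0.495). That of MAPK8 was -0.42 with the GC and length correction and -1.12 without serum-starved replicate 3.

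None of the 11 tested genes for SRF, its ternary complex partners, CREB and coactivators passed (7 above 0, 4 below, median log2 fold change 0.19, but -0.02 with the correction). EP300, an acetyltransferase coactivator, was at 33.9 ± 15.6 CPM in serum-starved cells and 16.9 ± 1.51 CPM with FBS (log2 fold change 1.01, edgeR adjusted p = 0.315), and MRTFB, an SRF coactivator, had a log2 fold change of 0.77 (edgeR adjusted p = 0.559). Without serum-starved replicate 3 these were 0.57 for EP300 and 0.30 for MRTFB. Among genes for the turnover of AP-1 proteins and transcripts, none of the 10 tested passed (6 above 0, 4 below, median 0.03). ZFP36L1 and ZFP36L2, which bind AU-rich elements and speed the decay of short-lived transcripts, were the 2 of 10 whose groups did not overlap, a share near the 17.7% of all genes tested. ZFP36L1 was at 172 ± 32.6 CPM in serum-starved cells and 92.7 ± 8.83 CPM with FBS (log2 fold change 0.89, edgeR adjusted p = 0.289), and ZFP36L2 at 64.7 ± 18.6 CPM in serum-starved cells and 37.03 ± 3.58 CPM with FBS (0.81, edgeR adjusted p = 0.347). ZFP36L1 passed in the corrected fit without serum-starved replicate 1 (1.03, edgeR adjusted p = 0.0416), a fit chosen after seeing the data.

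Of 33 textbook targets of AP-1, 22 were tested and none passed, with 7 above 0 and 15 below and a median log2 fold change of -0.24, against -0.02 over all genes. ANXA1, the lipid-binding annexin A1, was at 46.5 ± 18.8 CPM in serum-starved cells and 117 ± 52.6 CPM with FBS (SD, n = 3 each; log2 fold change -1.33, edgeR adjusted p = 0.219). MMP1, the interstitial collagenase whose promoter is a classic AP-1 target, was at 26.0 ± 13.6 CPM in serum-starved cells and 67.7 ± 36.99 CPM with FBS (log2 fold change -1.38, edgeR adjusted p = 0.272). Both have transcripts poor in GC, and the corrected log2 fold changes were -0.82 for ANXA1 and -0.87 for MMP1. Both passed when no low-count filter was applied (edgeR adjusted p = 0.0127 for ANXA1 and 0.00912 for MMP1). That fit called 83 genes higher and 44 lower of 23463. ANXA1 also passed without serum-starved replicate 3 (-1.57, edgeR adjusted p = 0.0278). MMP1 did not pass there (-1.08, edgeR adjusted p = 0.195) or with the correction (edgeR adjusted p = 0.338). The groups overlapped for MMP1, with serum-starved replicate 2 at 40.8 CPM and FBS replicate 3 at 28.7 CPM. PLAUR, the urokinase receptor, and its ligand PLAU were chosen after their values were seen. PLAUR was at 93.9 ± 27.7 CPM in serum-starved cells and 190 ± 38.3 CPM with FBS (log2 fold change -1.02, edgeR adjusted p = 0.262), and it passed with the correction (-1.18, edgeR adjusted p = 0.0277). PLAU was at 51.9 ± 32.1 CPM in serum-starved cells and 27.6 ± 3.11 CPM with FBS (log2 fold change 0.91, edgeR adjusted p = 0.418), so the values of receptor and ligand pointed in opposite directions. PLAU passed in the corrected fit without serum-starved replicate 1 (1.31, edgeR adjusted p = 0.0103), a fit chosen after seeing the data. The library left out, at 21.7 CPM, lay below every library with FBS (25.8, 31.2 and 25.9 CPM). Serum-starved replicates 2 and 3 were at 85.6 and 48.3 CPM, so the groups overlapped.

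**Figure D5:**
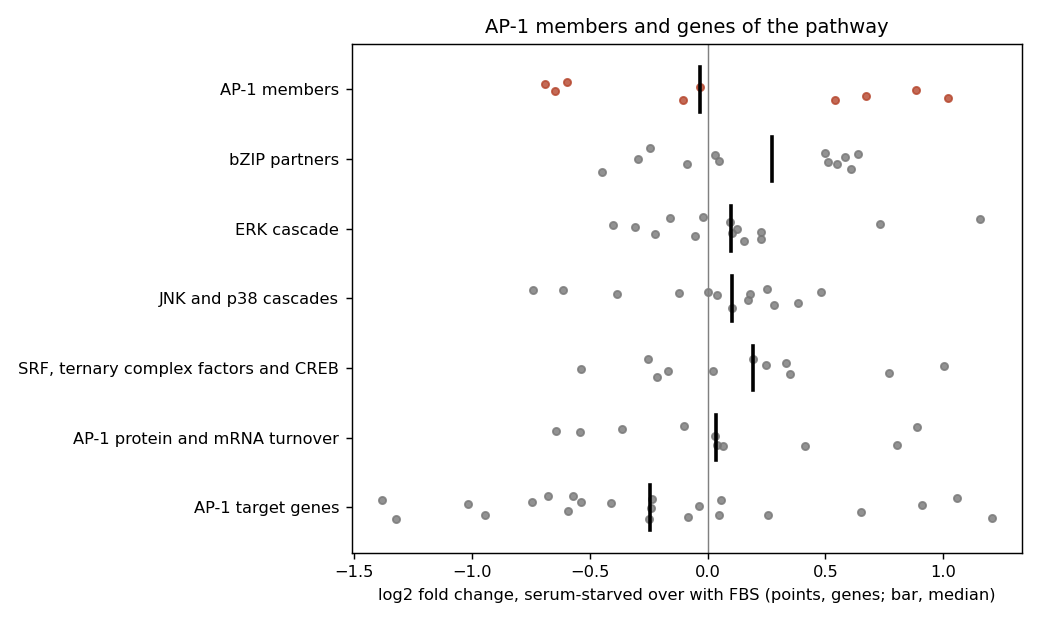
Log2 fold change, serum-starved over with FBS, of the 9 members and of the tested genes of 6 pathway lists, a point per gene and a bar at each list's median. The members spread from -0.69 to 1.02, and the targets have the lowest median, -0.24.

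The genes whose levels followed FOSL1 most closely over the 6 libraries were PRR22, QTRT1 and FXR2, with a root mean square difference of centred log2 CPM of 0.0574, 0.0609 and 0.0653, where the median over 8873 protein-coding genes was 0.556. Those most like JUND were SIX5, QPRT and TBC1D17, at 0.106, 0.111 and 0.113 (median 0.659). None of the 6 passed the test. Likeness here is measured within the same 6 libraries, and what it rests on was not tested.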

How the data were processed

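RNA of 6 Ovcar8 libraries was measured by sequencing. Per the labels' protocols, libraries were made with a NEBNext Ultra 2 kit and run on a NovaSeq. The pipeline included STAR 2.6.1 and DESeq2 on GRCh38, per the submitters' processing notes. Which tool counted reads, and with what strand setting, is not stated. The deposited table of raw counts per gene, made by the authors, was the main measurement. The FPKM values deposited by the authors served for levels between genes; checked against the counts, they match count per length scaled by DESeq2 size factors (ratio 1 in all 6 libraries).

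The filterByExpr filter (at least 10 counts, total of at least 15) left 13772 genes. After TMM scaling, robust quasi-likelihood fits were made in edgeR 4.0.16 under R 4.3.3. The SE is the log2 fold change divided by the square root of F, and intervals use the test's degrees of freedom. Permutation tests were two-sided. The correction for GC content and length enters splines with 5 degrees of freedom per library as offsets. GC content came from GENCODE 29, whose start and end matched for all 58735 genes. Because the splines are fitted to all genes, the correction also removes any effect of serum that follows GC content or length. A count of 3 in a library is 0.132 to 0.204 CPM.

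The members and lists were chosen with earlier results of these data known. Named from each list were genes that passed and the 2 with the largest fold change at 5 CPM or more; the genes most like the top member of each subfamily were the 3 closest. Alternatives used DESeq2 1.42.0 and limma 3.58.1 among others.

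A result on 1 gene of the lists is not reported here.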

Additional observations from a re-analysis of the deposited data

How the results depend on the processing

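The number of members that passed was 0 in every alternative run except the fit without serum-starved replicate 3, where it was 1 (JUND), so it ran from 0 to 1 over the fits that left out a library. Of 196 fold changes of members under alternatives, 190 kept their sign and their side of the threshold. The sign turned for FOSL2 without serum-starved replicate 3 (0.02) and without FBS replicate 2 (0.12), and for JUN when serum-starved replicate 1 (0.02) or replicate 3 of that group (0.01) was left out and with the GC and length correction without FBS replicate 1 (0.0050). Leaving out a library, FOSL2 ran from -0.14 to 0.12 and JUN from -0.36 to 0.018. The cause was not tested. On log2(FPKM + 1), where the pseudocount is close to or above their levels, ATF3 was 0.56, FOS 0.27 and, without a filter, FOSB 0.18. FOSB is below a mean FPKM of 0.5 and has no value in the filtered FPKM fits, and DESeq2 gave it no adjusted p.

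The count over all genes, 39, was 25 with total counts alone, 127 without the low-count filter, 160 with DESeq2, 2 with limma on log2(FPKM + 1) without a filter, 107 with the GC and length correction and 145 with that correction and the replicate block. It ran from 4 to 257 over the fits that left out a library. With the correction, in fits chosen after seeing the data, the count was 107 when serum-starved replicate 1 was left out, 93 when replicate 3 of that group was, and 24 when FBS replicate 1 was. The values gave no sign that replicate numbers pair the libraries: deviations of same-numbered libraries correlated at -0.26, 0.10 and -0.08 across genes, and 1 of 6 libraries was most like its own number. With 3 libraries per group and GC trends within groups, this cannot show whether same-numbered libraries were prepared together. With the replicate block 43 genes and 0 members passed. The differences in subfamily share kept their sign in all alternatives run, but some sizes moved by over 1.5 times. On raw counts the difference was -7.34 points for FOSL1, 6.71 for FOSL2, 0.275 for FOSB and -3.45 for JUNB. Leaving out serum-starved replicate 3 gave -1.76 for FOSL1 and 1.45 for FOSL2, and leaving out serum-starved replicate 1 gave 0.407 for FOS and -7.70 for JUN. Leaving out FBS replicate 1 gave -3.15 for JUNB and 11.2 for JUND. Depth limits FOS and FOSB, which had 10 to 93 counts in a library. Intervals cover the spread of these libraries only.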
